A study of Rattus norvegicus with 24 samples.

Results

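The MAM experiment compared the fetal cortex of 6 rat pups whose dams were given methylazoxymethanol acetate (MAM) with that of 6 pups of saline-treated dams, chosen by the maternal treatment in the labels from 24 pups sequenced. All were Sprague-Dawley embryos, and hippocampus with neocortex was dissected on embryonic day 18. MAM was injected into the peritoneum of the dam on gestational day 17 at 22 mg/kg, saline was given on the same day, and the tissue was collected 18 h later. Each group held 2 litters of 3 pups, so the dam was treated and the pup was measured. The other groups, which served here only for direct contrasts with MAM and for the estimate of spread, were 6 pups of dams given Poly I:C at 7.5 mg/kg and 6 pups of dams fed a low protein diet. The deposited table listed 17420 genes, of which 9769 had a mean of at least 0.1 TPM, the authors' length-scaled expression unit, in both the MAM and the saline pups and were tested. Of these, 4648 had a mean below 1 TPM in the MAM or the saline pups. The cortical neuron factor Tbr1 was present in all 12 pups at 11.8 to 16.9 TPM and the progenitor factor Sox2 at 21.9 to 35.7 TPM. Of 15 hippocampal and medial pallial markers, 14 were listed and 10 reached the level for testing. Their summed level was 8.44 to 11.3 TPM. Striatum markers summed to 12.1 to 16.4 TPM in MAM and 14.5 to 31.2 TPM in saline, so that sum does not by itself identify the tissue.

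MAM is a short-lived DNA alkylating agent that adds methyl groups to bases and kills or stalls cells in division. Given late in gestation it reaches a cortex in which radial glia and intermediate progenitors are still dividing, and it is used to build a rodent model with features of schizophrenia. DNA damage stabilises the transcription factor p53, which switches on genes for cell cycle arrest, DNA repair and apoptosis. Among these, Cdkn1a encodes p21, an inhibitor of cyclin-dependent kinases that holds cells before S phase and before mitosis. Genes of G2 and mitosis are switched on together as cells approach division, through CCAAT boxes and an element called the cell cycle genes homology region (CHR) in their promoters, and are held down when p53 and p21 are active.

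Cdkn1a and Aen were the 2 genes past the test at an adjusted p under 0.05 (limma, Benjamini-Hochberg over 9769 genes), both higher in MAM. That is 0.0205% of the genes tested, and no gene passed it with a lower level in MAM (0.00%). At an unadjusted p under 0.05, 240 genes (2.46%) were higher and 787 (8.06%) lower in MAM. That split of the unadjusted calls depended on the scaling. After scaling by the median of ratios, 539 genes were higher and 314 lower, and the share of higher genes among those called went from 23.4% to 63.2%. With the deposited scaling the median log2 difference of all genes tested was -0.06, and list medians below are to be read against that value. All 12 values of 29 genes (0.297%) were separated with MAM higher, and those of 62 genes (0.635%) with MAM lower.

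For Cdkn1a the deposited levels were as follows. The 3 pups of MAM litter 1 had 1.21, 1.19 and 1.00 TPM and those of MAM litter 2 had 1.06, 1.16 and 1.15 TPM. The saline pups had 0.592, 0.492 and 0.562 TPM in litter 1 and 0.626, 0.619 and 0.505 TPM in litter 2. Every MAM pup was above every saline pup, and both litters of a group lay close together. The log2 difference was 1.00 (SE 0.12, limma adjusted p = 0.000253), and the exact permutation test of 6 against 6 gave its smallest possible two-sided p of 0.00216. Against the Poly I:C pups the log2 difference of Cdkn1a was 0.99 (limma adjusted p = 0.00033), and against the Low Protein pups it was 1.08 (limma adjusted p = 6.1e-05). No saline pup enters these differences, but the saline pups do enter the estimate of spread behind the p-values and the choice of genes tested. Both contrasts reuse the same 6 MAM pups, so they are not independent of the comparison with saline. Without saline litter 1 the adjusted p of Cdkn1a was 0.054, and with litter means as the unit it was 0.26.

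Aen encodes a nuclease that p53 switches on and that takes part in apoptosis. It was at 2.19, 2.11 and 2.14 TPM in MAM litter 1 and at 2.36, 2.13 and 2.30 TPM in MAM litter 2. The saline pups had 1.62, 1.76 and 1.69 TPM in litter 1 and 1.53, 1.85 and 1.94 TPM in litter 2. The groups did not overlap, and the gap between the highest saline pup and the lowest MAM pup was narrow. The log2 difference was 0.35 (SE 0.06, limma adjusted p = 0.0166). Direct contrasts of Aen gave a log2 difference of 0.21 against Poly I:C (limma adjusted p = 0.0602) and of 0.27 against Low Protein (limma adjusted p = 0.0617), both short of the threshold. The call of Aen was less stable than that of Cdkn1a: it held in 21 of 33 alternative analyses, with an adjusted p between 0.000534 and 0.969, while Cdkn1a held in 30 of 32. Leaving out pup 1 or 3 of MAM litter 2, pup 1 or 3 of saline litter 1, or pup 1 of saline litter 2 left Aen with an adjusted p above 0.05, as did leaving out any litter other than saline litter 2. The same held with sex as a covariate (limma adjusted p = 0.0527), with litter means (0.685) and with only the 12 MAM and saline pups in the fit (0.0703).

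The promoters of both genes hold a match to the p53 decamer motif. Of the 27457 promoters in the RefSeq table (GRCr8, 250 bases before to 50 after the start, both strands), 7.89% hold such a match, and so do 6 of the 24 matched promoters among the 29 p53 targets tested. The 250 bases before the start of Cdkn1a (chr20:7150682-7150931, plus strand) and of Aen (chr1:142224283-142224532, plus strand) are shown because these were the genes that passed the test, with the match in capitals. The build is later than the rn6 assembly the authors aligned to, and a match is a description of letters, not a binding site.
Cdkn1a: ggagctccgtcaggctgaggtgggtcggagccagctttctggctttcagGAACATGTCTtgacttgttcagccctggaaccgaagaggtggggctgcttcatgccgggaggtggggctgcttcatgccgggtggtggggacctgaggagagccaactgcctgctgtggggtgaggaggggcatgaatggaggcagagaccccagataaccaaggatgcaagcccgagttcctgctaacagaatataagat
Aen: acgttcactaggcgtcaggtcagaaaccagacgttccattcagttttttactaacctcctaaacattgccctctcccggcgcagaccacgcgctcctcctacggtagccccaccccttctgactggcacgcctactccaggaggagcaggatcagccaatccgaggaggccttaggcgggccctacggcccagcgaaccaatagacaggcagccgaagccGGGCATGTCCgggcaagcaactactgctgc

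**Figure D1:**
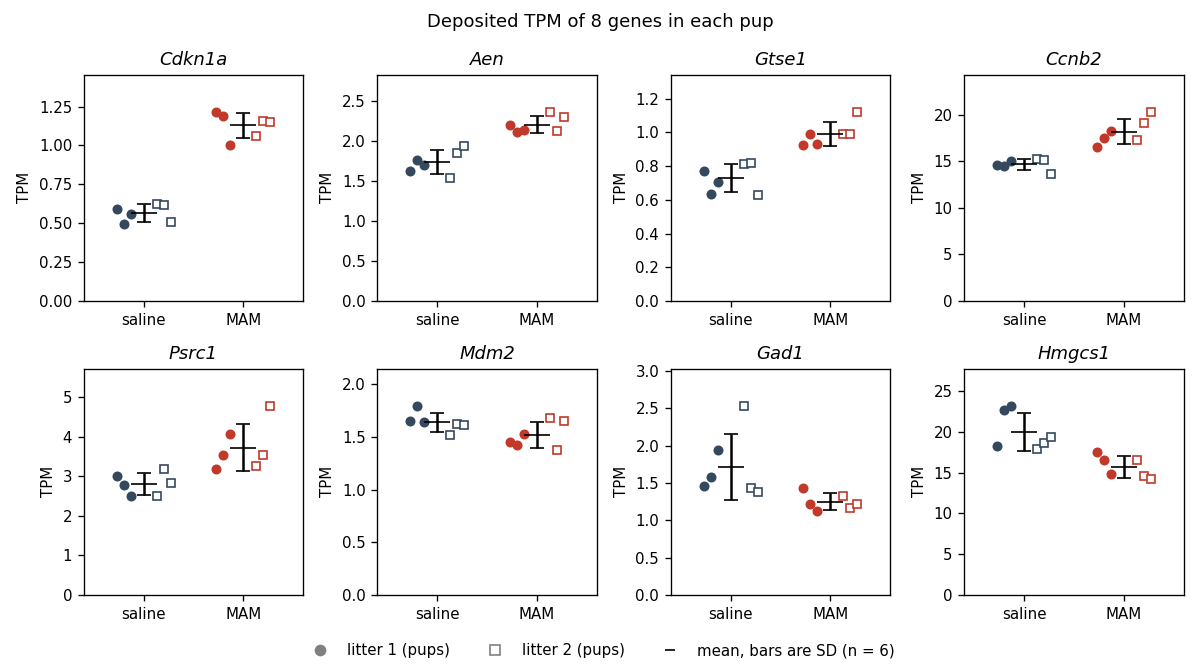
Deposited TPM (linear axes from 0) of 8 genes in each of the 6 saline and 6 MAM pups, circles for litter 1 and squares for litter 2, with the group mean and SD (n = 6) as bars. Cdkn1a was between 1.00 and 1.21 TPM in MAM and at most 0.626 TPM in saline, while Mdm2, another p53 target, overlapped.

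The other p53 targets were mixed. Of 39 genes on the list, 37 were in the table and 29 were tested. Beside the 2 past the adjusted test, 6 were higher and 3 lower at an unadjusted p under 0.05. That makes 8 of 29 higher (27.59%) and 3 of 29 lower, where 2.46% and 8.06% of all genes were. The list median was -0.003 against -0.06 for all genes. Sesn2, which encodes an antioxidant inhibitor of mTORC1 signalling, had 0.379 to 0.439 TPM in MAM and 0.256 to 0.352 TPM in saline, with no overlap and a log2 difference of 0.42. Its level in MAM was close to that in the Low Protein pups, with a log2 difference of -0.01 (limma adjusted p = 0.988). Ddit4, another mTORC1 inhibitor, was also separated, at 39.4 to 45.6 TPM in MAM and 33.6 to 39.3 TPM in saline. Its log2 difference was 0.22.

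Among the rest, Phlda3, an inhibitor of AKT, had a log2 difference of 0.55 with means of 1.62 TPM in MAM and 1.12 TPM in saline. Rps27l had one of 0.40, Psrc1, a spindle protein, one of 0.40, and Bbc3, which encodes the pro-apoptotic protein PUMA, one of 0.27. None of these 4 passed the adjusted test, and their groups overlapped. Lower at the unadjusted threshold were Blcap (-0.19), the kinase gene Plk2 (-0.19) and Tigar (-0.17), a regulator of sugar breakdown.

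Mdm2, Ccng1 and Bax, well-known p53 targets, did not pass the unadjusted threshold. Mdm2, the ubiquitin ligase that degrades p53, was at 1.38 to 1.68 TPM in MAM and 1.51 to 1.79 TPM in saline. Its log2 difference was -0.11 (SE 0.06, unadjusted p = 0.076 in limma). The cyclin G1 gene Ccng1 had a log2 difference of 0.13 (SE 0.07) and Bax, a pore-forming apoptosis gene, one of 0.09 (SE 0.05). In all 3 the pups of the groups overlapped. Gadd45a, a stress gene, was at -0.23 and Perp, a membrane protein gene, at -0.34, both uncalled.

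Genes of apoptosis and of repair were read against 2.46% of all genes higher and 8.06% lower at the unadjusted threshold. Of 25 apoptosis genes tested none was higher and 1 was lower at the unadjusted threshold (Bid, -0.19), with a median of -0.07. Of 24 genes for the repair of alkylated bases, 2 were higher: Alkbh2, which removes methyl groups from DNA directly, at 0.26, and Mpg, the glycosylase that cuts out methylated purines, at 0.24. The median of that list was 0.01. Alkbh2 had 0.676 to 0.852 TPM in MAM and 0.524 to 0.711 TPM in saline, and Mpg had 0.972 to 1.21 TPM in MAM and 0.787 to 1.14 TPM in saline, so that both overlapped. Mgmt, which reverses methylation of guanine, was below the level required for testing, at 0.00601 ± 0.00111 TPM in MAM and 0.00470 ± 0.000949 TPM in saline (SD, n = 6). Of 25 DNA damage signalling genes 1 was lower (Hus1, a checkpoint clamp gene, -0.25), and the median was -0.01.

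Among cell cycle genes, 21 of 60 for G2 and mitosis and 1 of 47 for replication were higher in MAM at the unadjusted threshold, beside 2.46% of all genes. Of 69 G2 and mitosis genes, 62 were in the table and 60 were tested. None passed the adjusted test. At the unadjusted threshold none was lower, and by sign 56 were higher and 4 lower, with a median of 0.17. Both MAM litter means lay above both saline litter means in 42 of the 60, a pattern seen in 11.3% of all genes tested. In 5 the 12 values were fully separated, against 0.297% of all genes.

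Ccnb2, a B-type cyclin that drives entry into mitosis, had 16.5, 17.5 and 18.2 TPM in MAM litter 1 and 17.3, 19.1 and 20.2 TPM in MAM litter 2. Its saline values were 14.6, 14.5 and 15.0 TPM in litter 1 and 15.2, 15.1 and 13.6 TPM in litter 2. The lowest MAM pup was above the highest saline pup. The log2 difference was 0.30 (SE 0.08, limma adjusted p = 0.388). Gtse1, a G2 and S phase protein that binds p53, had 0.922, 0.993 and 0.932 TPM in MAM litter 1 and 0.991, 0.993 and 1.12 TPM in MAM litter 2. Its saline values were 0.768, 0.635 and 0.706 TPM in litter 1 and 0.81, 0.817 and 0.631 TPM in litter 2. These too did not overlap, and the log2 difference was 0.45 (SE 0.11, limma adjusted p = 0.382).

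Ube2c and Cdc20, an enzyme and an activator of the anaphase-promoting complex, each had a log2 difference of 0.32. Cks2, which binds cyclin-dependent kinases, had one of 0.28. Separated as well were Ube2c, Cks2 and Fam83d, a spindle gene at 0.33. The kinase gene Cdk1 was at 2.19 TPM in MAM and 1.88 TPM in saline, a log2 difference of 0.22. Ccnb1, Aurka, Aurkb, Birc5, Pttg1, Nusap1, Cdca8 and Kif20a, genes of the mitotic kinases and the spindle, were among the 21, with log2 differences from 0.20 (Ccnb1) to 0.29 (Aurkb). Of the markers used to count dividing cells, Mki67 was at -0.05 (SE 0.16) and Top2a at 0.09 (SE 0.10).

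The summed TPM of the list went the other way, at 443.5 to 501.7 in MAM and 465.7 to 510.5 in saline. That sum is carried by Stmn1, a microtubule regulator that neurons also express, with a mean of 322.2 TPM in MAM and 353.7 TPM in saline. Averaged over members on the log2 scale relative to the saline mean, the MAM pups lay between 0.05 and 0.34 and the saline pups between -0.07 and 0.13, so that the groups overlapped. Without MAM litter 2, 6 members were higher at the unadjusted threshold, without saline litter 1 there were 11, and with litter means 12. In these none was lower. Of all 9769 genes, 105, 93 and 141 were higher in those settings, in that order.

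Direct contrasts with the other exposures used the same fit. Against Poly I:C 8 of the 60 were higher and none lower at the unadjusted threshold, with a median of 0.02. Against Low Protein 4 were higher and none lower, with a median of 0.05. The background in those contrasts was 4.42% higher and 17.0% lower, and 1.89% higher and 7.95% lower. None of the 60 passed the adjusted test in either contrast, in which 0.389% of all genes rose and 1.81% fell (Poly I:C) and 0.0205% rose and 0.0409% fell (Low Protein).

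The promoters of 3 separated or called members are shown because CCAAT boxes (CCAAT or ATTGG) and CHR elements (TTTGAA or TTCAAA) recur in them. The windows are the 250 bases before the start of Ccnb2 (chr8:79981659-79981908, minus strand), Cks2 (chr17:13727520-13727769, minus strand) and Cdc20 (chr5:137255800-137256049, minus strand), from RefSeq on GRCr8 and written 5′ to 3′ on the gene's strand, with both motifs in capitals. Ccnb2 holds 3 CCAAT boxes and 2 CHR elements, Cks2 holds 4 and 1, and Cdc20 holds 2 and 1.
Ccnb2: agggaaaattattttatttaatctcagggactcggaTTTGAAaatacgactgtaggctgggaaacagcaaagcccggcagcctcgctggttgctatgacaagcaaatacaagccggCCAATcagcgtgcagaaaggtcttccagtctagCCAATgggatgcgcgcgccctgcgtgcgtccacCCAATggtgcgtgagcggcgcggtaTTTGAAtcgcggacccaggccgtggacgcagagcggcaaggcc
Cks2: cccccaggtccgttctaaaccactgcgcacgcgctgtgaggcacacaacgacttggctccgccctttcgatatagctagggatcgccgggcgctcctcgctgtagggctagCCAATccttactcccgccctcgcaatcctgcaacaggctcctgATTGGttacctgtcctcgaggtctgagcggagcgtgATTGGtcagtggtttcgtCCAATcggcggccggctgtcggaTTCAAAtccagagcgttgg
Cdc20: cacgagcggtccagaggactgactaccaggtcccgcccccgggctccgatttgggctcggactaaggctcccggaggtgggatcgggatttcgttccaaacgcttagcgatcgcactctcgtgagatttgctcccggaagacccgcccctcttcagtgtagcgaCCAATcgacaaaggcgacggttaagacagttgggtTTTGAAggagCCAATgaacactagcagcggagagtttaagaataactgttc

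Of all promoters listed by RefSeq, 37.7% hold a CCAAT box, 18.1% a CHR element and 7.25% both. Of the 60 G2 and mitosis genes 51 had a promoter in the table, and 36 of these (70.6%) hold a CCAAT box, 35 (68.6%) a CHR element and 29 (56.9%) both. Among the 21 higher genes 19 had a promoter, and 13 (68.4%) hold both. The Gtse1 window holds neither, and it does hold 1 match to the p53 decamer.

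Replication and S phase genes gave 1 higher and no lower of 47 tested, with a median of 0.06. Pold2, a polymerase delta subunit, was the 1 gene, at 0.15. The helicase gene Mcm2 was at 0.10 (SE 0.12). Pcna, the sliding clamp and a p53 target as well, was at 19.1 TPM in MAM and 18.9 TPM in saline, a log2 difference of 0.00 (SE 0.10).

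**Figure D2:**
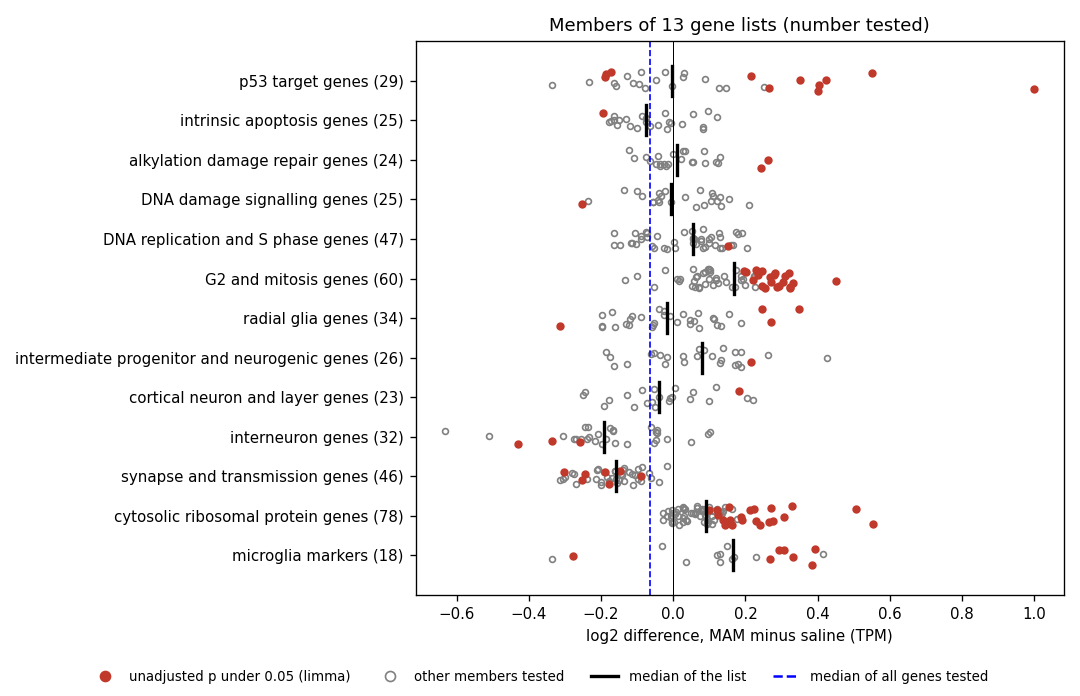
Log2 difference (MAM minus saline, deposited TPM) of each member tested of 13 gene lists, filled where the unadjusted limma p was under 0.05, with the list median as a black bar and the median of all 9769 genes, -0.06, as a dashed line. The G2 and mitosis list sits to the right (median 0.17) and the interneuron and synapse lists to the left (medians -0.19 and -0.16), and Cdkn1a is the single point at 1.00.

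Progenitor and projection neuron genes showed no common direction. In bulk tissue fewer cells of a type and less RNA per cell cannot be told apart. Of 34 radial glia genes 3 were higher and 1 lower at the unadjusted threshold, beside 2.46% and 8.06% of all genes, with a median of -0.02. The higher ones were Hopx (0.35), a marker of outer radial glia, the Notch effector Hes1 (0.27) and Lhx2 (0.25), a cortical selector gene, and the lower one was Ddah1 (-0.31). Pup 1 of saline litter 2 had the lowest saline value of Hopx, Hes1 and Lhx2. It had 1.10 TPM of Hopx (other saline pups 1.75 to 2.19) and 3.57 TPM of Lhx2 (others 5.84 to 6.84). Pax6 was at 0.11 (SE 0.11) and Sox2 at -0.06 (SE 0.10), the transcription factors that define these cells. The intermediate progenitor list had 1 higher of 26 (Mfng, 0.22) and a median of 0.08. Its defining genes Eomes and Neurog2 were not in the deposited table under these names and could not be tested. Cortical neuron genes had 1 higher of 23 (Crym, 0.18), no lower and a median of -0.04. The lowest saline value of Crym was again that of pup 1 of litter 2, at 3.51 TPM (others 4.33 to 4.69). The layer genes Tbr1 and Bcl11b were at -0.07 (SE 0.09) and -0.25 (SE 0.13).

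Interneuron genes were mostly lower by sign. Of 32 tested, 29 had a negative difference, as had 6983 of all 9769 genes. At the unadjusted threshold 3 were lower and none higher, a share near the 8.06% of all genes that were lower, and the median was -0.19. The list was not lower in MAM than in the other exposures. Against Poly I:C 2 members were higher and 2 lower, with a median of -0.01 (-0.06 for all genes). Against Low Protein 1 was higher and none lower, with a median of 0.13 (-0.04 for all genes). The shares of all genes were 4.42% higher and 17.0% lower, and 1.89% and 7.95%. Gad1, which makes GABA, was at 1.43, 1.22 and 1.12 TPM in MAM litter 1 and at 1.33, 1.17 and 1.22 TPM in MAM litter 2. Saline pups had 1.46, 1.58 and 1.94 TPM in litter 1 and 2.52, 1.43 and 1.38 TPM in litter 2. The groups overlapped at their edges, and 1 saline pup, number 1 of litter 2, was well above the rest. The log2 difference of Gad1 was -0.43 (SE 0.20, limma adjusted p = 0.464).

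The same saline pup had the highest level of Dlx1 (44.8 TPM, others 26.1 to 31.5), of Nkx2-1 (9.74 TPM, others 1.79 to 4.93) and of the striatal peptide gene Tac1 (1.71 TPM, others 0.524 to 0.932), and the lowest of the cortical gene Lhx2. Without it the median of the interneuron list was -0.09 with 1 member lower, where 1308 of all 9769 genes were lower. The log2 difference of Dlx1 was then -0.16. That of Lhx6, a gene downstream of Nkx2-1 in interneurons from the medial ganglionic eminence, was -0.29 instead of -0.34. The striatum marker list gave 2 lower of 11 (Tac1, -0.75, and Meis2, -0.19) and a median of -0.31. Its summed level was 12.1 to 16.4 TPM in MAM and 14.5 to 31.2 TPM in saline. Without that pup none of the 11 was lower at the unadjusted threshold, and the median was -0.19. Their part in the interneuron result was not tested.

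Synapse and transmission genes were lower by sign in all 46 members tested, where 6983 of all 9769 genes were. At the unadjusted threshold 7 were lower and none higher, beside 8.06% and 2.46% of all genes, and the median was -0.16. Both MAM litter means lay below both saline litter means in 40 of the 46, and in 42.4% of all genes tested. Among the 7 were Oprl1, the nociceptin receptor gene (-0.30), Syn1 (-0.24), Gabbr1 (-0.19), Syp (-0.18), Srr (-0.15) and Gnb1 (-0.09). Gabbr1 encodes a subunit of the GABA-B receptor, Syn1 and Syp are synaptic vesicle proteins, and Srr makes D-serine. Srr had 2.00 to 2.33 TPM in MAM and 2.25 to 2.71 TPM in saline, which overlapped. The list was not lower in MAM than in the other exposures. Against Poly I:C 4 of the 46 were higher and 1 lower at the unadjusted threshold (4.42% and 17.0% of all genes), with a median of 0.05. Against Low Protein none was higher or lower (1.89% and 7.95% of all genes), with a median of 0.02. The medians of all genes were -0.06 and -0.04. The genes of this list are long, with a median genomic span of 52334 bases against 19473 bases for all genes tested. After removal of the trend with span the list median was -0.09 with 1 member lower, and Gnb1 turned to 0.01. In that setting 441 of all genes were higher and 221 lower. The removal also recentred all genes of each pup, so this median is not to be read against -0.06.

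That trend ran through all genes. In the 3217 genes of shortest genomic span the median log2 difference was -0.01, with 5.38% higher and 3.67% lower at the unadjusted threshold. In the 3217 of longest span it was -0.11, with 0.249% higher and 12.6% lower. The slope of log2 TPM on log10 span varied among pups. It was -0.163 to 0.00202 in the MAM pups, while the saline pups had -0.12 to 0.0596, and the lowest saline slope was that of pup 1 of litter 2. Without the trend 441 genes were higher and 221 lower, and Cdkn1a and Aen were again the 2 genes past the adjusted test. The deposited values are themselves scaled to a length that matches the genomic span, not the transcript.

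**Figure D3:**
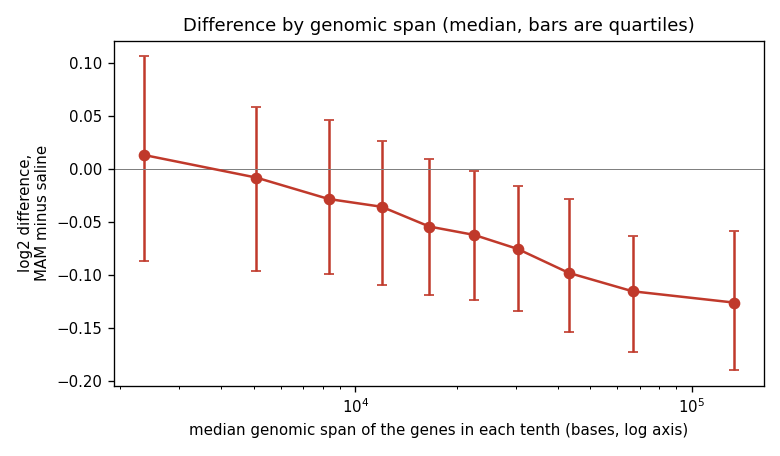
Median log2 difference (MAM minus saline) with quartiles as bars, for 10 equal groups of 965 genes ordered by genomic span (log axis, bases). The median was 0.01 in the shortest group and -0.13 in the longest.

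Ribosomal protein genes were higher in 21 of 78 tested at the unadjusted threshold and lower in none, beside 2.46% and 8.06% of all genes. The median was 0.09, and the study drew attention to this class on these same samples. Rps21 was separated, with 10.9 to 14.4 TPM in MAM and 7.83 to 10.8 TPM in saline. Its log2 difference was 0.55 (SE 0.14). Rpl37a was at 0.51, Rps10 at 0.31, Rps19 at 0.28 and Rps15a at 0.27. These genes are short, with a median span of 3128.5 bases, and many have near-identical pseudogene copies among which reads can be split. Without saline litter 1 the count was 4, where 93 of all 9769 genes were higher. Against Poly I:C 19 were higher and none lower (4.42% and 17.0% of all genes), and against Low Protein 1 was higher and 11 lower (1.89% and 7.95% of all genes).

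Microglia markers were higher in 6 of 18 tested and lower in 1 at the unadjusted threshold, beside 2.46% and 8.06% of all genes, with a median of 0.16. C1qa, a complement subunit, had 5.08, 4.82 and 4.67 TPM in MAM litter 1 and 5.79, 5.37 and 4.05 TPM in MAM litter 2. In saline it had 3.64, 3.73 and 3.82 TPM in litter 1 and 3.49, 3.97 and 3.94 TPM in litter 2. The groups did not overlap, and the log2 difference was 0.39 (SE 0.17, limma adjusted p = 0.459). C1qb (0.33), Trem2 (0.38), Tyrobp (0.29), Ctss (0.31) and Laptm5 (0.27), genes of phagocytic and lysosomal function, were the others that were higher. The lineage receptors Csf1r and Cx3cr1 were at 0.04 and -0.03. The summed level of the list was 20.7 to 25.6 TPM in MAM and 17.2 to 21.1 TPM in saline. Without MAM litter 2 none of the 18 was higher at the unadjusted threshold, where 105 of all 9769 genes were. Dnase2, the lysosomal nuclease that degrades engulfed DNA, is not on the list but was separated, with 2.26 to 2.67 TPM in MAM and 1.81 to 2.16 TPM in saline and a log2 difference of 0.36. The lysosomal protease gene Ctsz was separated too, at 0.37.

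**Figure D4:**
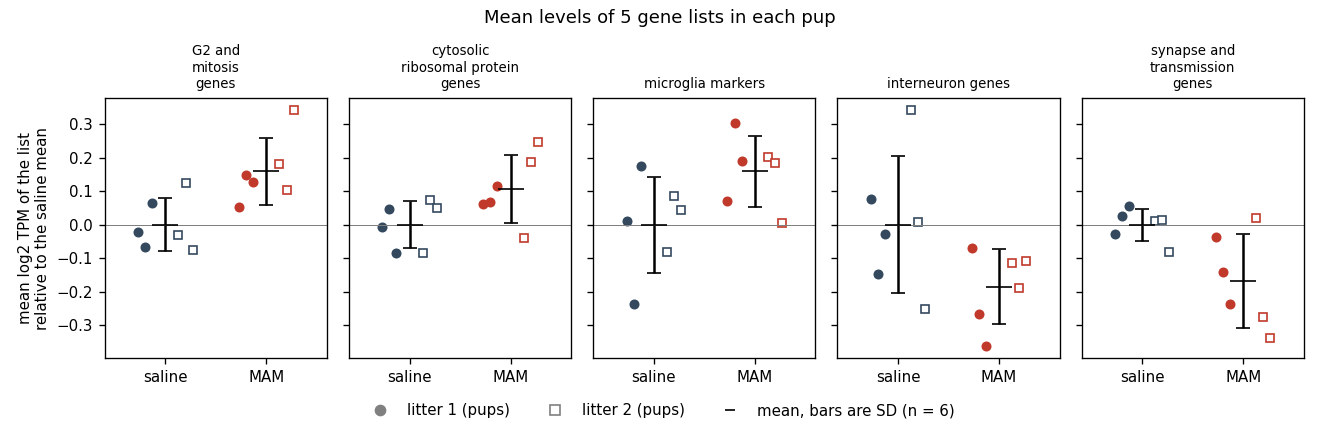
Mean log2 TPM of the members tested of 5 lists in each pup, relative to the saline mean, circles for litter 1 and squares for litter 2, with group mean and SD (n = 6) as bars. The G2 and mitosis list lay between 0.05 and 0.34 in MAM pups and between -0.07 and 0.13 in saline pups, and 1 saline pup reached 0.34 on the interneuron list.

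Markers of other tissue in the dissection were measured in the same fit, with calls at the unadjusted threshold. At that threshold 2.46% of all genes were higher and 8.06% lower. Hbz and Hbe1, embryonic globins, were higher among 12 blood genes (0.95 and 0.75), and the summed level of that list was 2365 to 4249 TPM in MAM and 2083 to 3605 TPM in saline. Choroid plexus genes ranged widely in MAM, from 59.3 to 218.2 TPM in sum against 131 to 191.4 TPM in saline, and none of 12 was called. All 12 had a negative difference, with a median of -0.36, where 6983 of all 9769 genes were negative and the median was -0.06. Pup 3 of each MAM litter carried this, at -1.50 and -1.22 on the list mean relative to saline. The other MAM pups lay between -0.10 and 0.49 and the saline pups between -0.25 and 0.27. The median sum of the choroid plexus genes was 158.0 TPM in MAM and 143.6 TPM in saline. The oligodendrocyte lineage list (11 of 11 negative, median -0.21) and the Cajal-Retzius list (9 of 10 negative, median -0.20) were lower by sign as well. So was the hippocampal and medial pallial list, part of the dissected tissue (8 of 10 negative, median -0.19). Their part in the other results was not tested. No gene was called among 15 endothelial, 15 meninges, 9 thalamus and 10 Cajal-Retzius markers. In lists this short, no call or a single call cannot be told from the shares of all genes. In the others, Rgs5 was lower among 9 pericyte markers (-0.28) and Sox10 among 11 oligodendrocyte lineage markers (-0.41). Meis2, also on the striatum list, was lower among 10 hippocampal markers (-0.19), and Gfap was higher among 9 astrocyte markers (0.22). Of 23 immediate early genes, Ier5 was higher (0.31).

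The sexes were unequal. From the Y-linked gene Eif2s3y, 4 of 6 MAM pups and 2 of 6 saline pups were male. With sex as a covariate Cdkn1a passed the adjusted test and Aen did not (limma adjusted p = 0.000795 and 0.0527), and 262 were higher and 1183 lower at the unadjusted threshold.

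The largest separated differences outside the lists were small in absolute level. Accs was at 0.173 TPM in MAM and 0.120 TPM in saline (log2 difference 0.54), Asf1b, a histone chaperone gene of S phase, at 0.485 and 0.352 TPM (0.48), and Ap5s1, an adaptor subunit gene, at 1.22 and 0.92 TPM (0.40). Lower and separated were Bcl6b, a transcriptional repressor gene, with 0.624 to 0.833 TPM in MAM and 1.01 to 1.20 TPM in saline (log2 difference -0.60), and Ahcyl2 (-0.43), Gucy1b3 (-0.42), Habp4 (-0.36), Sh3yl1 (-0.35), Optn (-0.35), Dclk3 (-0.33) and Neto1 (-0.33). With only the 12 MAM and saline pups in the fit, Bcl6b reached a limma adjusted p of 0.00771, and in no other analysis did it pass. Hmgcs1, also in that set, belongs to sterol synthesis.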

How the data were processed

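RNA of 24 fetal brain samples was sequenced as paired 100-base reads by the authors, trimmed at phred 30 with a minimum length of 25, aligned to rn6 with STAR 2.4.1d and quantified against RefSeq transcripts release 80 in Partek. The deposited values are TPM to which the authors added an offset of 0.0001; every pup sums to 70350.1 TPM, and low values step by the genomic span of the gene. They are not counts, so depth was estimated from those steps, at roughly 35.3 to 70.7 M reads per MAM pup and 27.4 to 60.2 M per saline pup. Only 50.2 to 53.9% of low values fell within 0.05 of a whole read, so no count test was run.

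Genes with a mean TPM of at least 0.1 in both groups were fitted as log2 TPM in all 24 pups with limma 3.58.1 in R 4.3.3 (variance trend, two-sided, Benjamini-Hochberg over 9769 genes). Single genes were also compared with an exact permutation test over 924 splits. The procedure was tested on simulated data. The 26 gene lists, the members and the analysis were chosen with earlier results of these data known. Genes named are those past the adjusted test, the 10 highest and 10 lowest separated differences, the 5 members of smallest p in each direction of each list, and a set of core genes; other list members are named as counts required it, after their values were seen. Genomic spans (97.6% of genes matched) and promoters came from RefSeq GRCr8, used for length and sequence only. The trend with span and the sex covariate combined with it were chosen after seeing the data. The p-values treat pups as independent although 3 share a dam. In the table, 26 gene names had been turned into dates. The methods give control rats a diet matched in calories to the low protein diet and do not say whether the MAM and saline dams received it. Some genes that the naming rule selects are not reported here.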

Additional observations from a re-analysis of the deposited data

Results flagged for a closer look

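In 162 groups of 6 pups, one for each named gene and group, 15 held a pup apart from the other 5 by Dixon's gap test at its 95% critical value, where chance marks about 1 in 20. Pup 1 of saline litter 2 accounted for 7 of these: it was high for Dlx1 (44.8 TPM), Tac1 (1.71 TPM), Sox10 (0.993 TPM), Gucy1b3 (0.929 TPM) and Habp4 (0.607 TPM) and low for Lhx2 (3.57 TPM) and Crym (3.51 TPM). Pup 1 of MAM litter 2 was low for Rpl37a (12.9 TPM), Rps10 (11.7 TPM) and Bid (0.43 TPM). Pup 3 of MAM litter 2 was high for Gtse1 (1.12 TPM) and low for Optn (0.159 TPM). Pup 3 of MAM litter 1 was high for Hbz (3.01 TPM). Among the other saline pups, pup 1 of litter 1 was high for Cdkn3 (0.541 TPM) and pup 3 of litter 1 was low for Rpl37a (9.57 TPM).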

How the results depend on the processing

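Directions of named genes rarely changed: of 2640 gene values over 33 alternatives, 2 reversed, both Gnb1, at 0.0124 with the genomic span trend removed and 0.0315 with sex added. Counts moved more; adjusted, higher and lower genes are given in that order, against 2, 240 and 787. A mean above 1 TPM in every group gave 1, 159 and 417, and litter means gave 0, 141 and 345. Median of ratios gave 539 higher and 314 lower, upper quartile 479 and 368, quantile normalization 527 and 322, the span trend removed 441 and 221, and with sex as well 587 and 269. Among the unadjusted calls the higher share was 23.4% as deposited and 56.6 to 68.6% under these 5. Sex as a covariate gave 1 adjusted and 1183 lower. Without 1 pup the counts were 1 to 3, 160 to 295 and 371 to 1308, the last lowest without pup 3 of saline litter 1 and highest without pup 1 of saline litter 2. Without a whole litter, counts were 1, 182 and 381 (MAM litter 1), 1, 105 and 374 (MAM litter 2), 0, 93 and 226 (saline litter 1) and 3, 298 and 909 (saline litter 2).

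With the replicate number as a block the counts were 1, 293 and 1033, and Aen no longer passed (limma adjusted p = 0.109). The numbers did not pair the samples: same-number correlations ran from -0.149 to 0.309, and 1 of 6 numbers correlated best with itself. Of the list medians, 840 moved by less and 17 by more than the spread between pups. The dam was the treated unit with 2 per group, and depth is only an estimate. The causes were not tested.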

Other observations

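Genes of sterol synthesis were lower in the MAM pups. The list of 24 was drawn up after the values were seen and is a description. At an unadjusted p under 0.05, 13 of the 24 were lower and none higher, beside 8.06% and 2.46% of all genes. A negative log2 difference was found in 23 of the 24 and in 6983 of all 9769 genes, and the median was -0.19, against -0.06 over all genes. Hmgcs1, an early enzyme of the pathway, had 17.5, 16.5 and 14.8 TPM in MAM litter 1 and 16.5, 14.6 and 14.2 TPM in MAM litter 2, against 18.3, 22.7 and 23.1 TPM and 17.9, 18.7 and 19.4 TPM in the saline litters. The groups did not overlap, and the log2 difference was -0.35 (SE 0.09, limma unadjusted p = 0.00091). Idi1 (-0.37), Insig1 (-0.31), a sterol sensor partner, Sqle (-0.26) and Fdft1 (-0.24), which makes squalene, were lower as well. The summed level of the 24 genes was 89.0 to 98.8 TPM in MAM and 105.4 to 117.3 TPM in saline, with no overlap.

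Over the alternative analyses 6 to 15 members were lower and none higher. The count was 6 without MAM litter 2, where 374 of all 9769 genes were lower. Against Poly I:C 10 were lower and none higher (17.0% and 4.42% of all genes), and against Low Protein 1 was lower and 1 higher (7.95% and 1.89%). None passed the adjusted test against saline.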
